A study of Homo sapiens with 31 samples.

Results

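The CEBP transcription factor genes CEBPA, CEBPB, CEBPD, CEBPE and CEBPG were examined for EVI1 and CTBP2 binding in human acute myeloid leukemia cells with high EVI1 expression. Every peak that overlapped a gene body or the 50 kb on either side of it was taken from 13 ChIP-seq peak lists, which gave 350 of 533140 peaks over 5 of 20176 protein-coding genes. Overlapping peaks of all lists were merged into 72 elements, each named by the gene and the distance of its summit from the transcription start site (TSS), with positive distances downstream. Of these, 26 were called in 1 list, 15 in 2 or 3 lists, 22 in 4 to 9 lists and 9 in at least 10 lists. The windows of CEBPA and CEBPG overlap and share 4 elements.

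C/EBP proteins are basic leucine zipper factors that bind DNA as dimers with each other or with related factors. CEBPA is needed for the step from myeloid progenitor to granulocyte-monocyte progenitor and is often mutated in acute myeloid leukemia, CEBPE acts in the late steps of granulocyte maturation, CEBPB and CEBPD are induced by inflammatory signals, and CEBPG lacks an activation domain and acts mostly as a dimer partner. A myeloid enhancer is known far downstream of CEBPA, and EVI1 is a zinc finger factor that recruits the co-repressor CTBP2 through a short PLDLS peptide motif.

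The lists come from MUTZ3, an EVI1-positive leukemia line with a chromosome 3 rearrangement, and from MOLM1, a second such line. Unmodified MUTZ3 cells gave 1 EVI1 and 1 CTBP2 library, and MOLM1 cells that carry an inducible short hairpin against EVI1, here without dox, gave 1 CTBP2 library. MUTZ3 cells transduced with a retroviral 4xPLASS construct, in which the CTBP2-binding motif is mutated, gave 2 CTBP2 libraries. MUTZ3 cells with inducible 4xPLDLS, a peptide competitor of the EVI1 to CTBP2 contact, gave 2 CTBP2 and 2 EVI1 libraries each without (untreated) and with dox at 72 hours; these were bulk transduced populations, and nothing in the labels says that the 2 libraries of a group came from separate cultures. The labels give a single crosslink for CTBP2 in unmodified cells and a double crosslink with DSG for the inducible cells. All 13 libraries were called against an input, and the lists ranged from 6688 peaks (4xPLASS replicate 1) to 72214 (untreated EVI1 replicate 2). They hold no read counts, so depth is unknown. Fold enrichments are printed as deposited and are not scaled between libraries. Libraries were set side by side by rank within a list or on a relative scale given below.

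The sequences around the CTBP2 summit of untreated replicate 1 are shown for the elements the results turn on: the 2 elements of the CEBPA window with the highest EVI1 enrichment, and the elements of the CEBPE and CEBPB windows with the highest CTBP2 enrichment, all in untreated replicate 1. Each is 200 bases of GRCh37, and capitals mark matches on either strand to the GATA-type letters GATAAG, which resemble the target of the first zinc finger domain of EVI1, to the ETS-type letters AGGAAG, to the RUNX letters TGTGGT and to the C/EBP letters TTGCNNAA.
CEBPA +41.6 kb (chr19:33751691-33751890, plus strand): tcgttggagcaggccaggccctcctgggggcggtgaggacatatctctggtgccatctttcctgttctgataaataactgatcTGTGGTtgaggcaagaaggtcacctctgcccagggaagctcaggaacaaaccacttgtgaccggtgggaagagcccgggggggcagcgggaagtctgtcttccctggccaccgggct
CEBPA +28.4 kb (chr19:33764974-33765173, plus strand): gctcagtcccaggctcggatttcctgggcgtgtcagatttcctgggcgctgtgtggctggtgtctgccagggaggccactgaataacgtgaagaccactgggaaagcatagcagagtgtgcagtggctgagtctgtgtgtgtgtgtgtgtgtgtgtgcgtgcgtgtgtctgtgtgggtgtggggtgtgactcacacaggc
CEBPE +7.3 kb (chr14:23582078-23582277, plus strand): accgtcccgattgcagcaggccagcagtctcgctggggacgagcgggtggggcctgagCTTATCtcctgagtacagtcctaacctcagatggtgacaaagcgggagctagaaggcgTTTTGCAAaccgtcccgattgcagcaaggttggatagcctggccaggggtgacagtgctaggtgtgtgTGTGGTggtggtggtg
CEBPB -24.8 kb (chr20:48782491-48782690, plus strand): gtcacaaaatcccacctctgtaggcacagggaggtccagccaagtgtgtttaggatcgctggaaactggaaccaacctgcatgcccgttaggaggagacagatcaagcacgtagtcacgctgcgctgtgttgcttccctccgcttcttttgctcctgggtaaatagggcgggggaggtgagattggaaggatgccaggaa

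The element 41.6 kb downstream of CEBPA was the strongest of all 5 windows and was called in all 13 lists. It spans chr19:33750836-33753510, between genes, on the far side of CEBPA from CEBPG. EVI1 fold enrichment was 16.0 in unmodified cells, 43.9 and 70.5 in untreated and 99.6 and 77.3 in dox-treated inducible cells. CTBP2 fold enrichment was 38.5 in unmodified MUTZ3, 60.0 in MOLM1, 17.8 and 37.4 in 4xPLASS cells, 33.7 and 48.6 in untreated and 30.2 and 28.8 in dox-treated inducible cells. By rank it stood at 3 of 53806 and 4 of 47599 in the EVI1 lists with dox, and at ranks 153 and 93 of the untreated EVI1 lists. For CTBP2 it ranked 9 of 16836 in unmodified MUTZ3, 8 of 64569 in MOLM1, 46 and 17 in 4xPLASS cells, 328 and 32 without dox, and 21 and 30 with it. In the unmodified EVI1 list it ranked 971 of 21505. Ranked by −log10 p instead, it stood at 82 in that list, at 14 and 7 in the untreated EVI1 lists and at 1 and 2 in those with dox. The summits of the 13 peaks fell within 47 bp of each other, and a TGTGGT match began at position -17 from the CTBP2 summit. The map of the CEBPA window shows this element as the one column filled in every list.

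**Figure D1:**
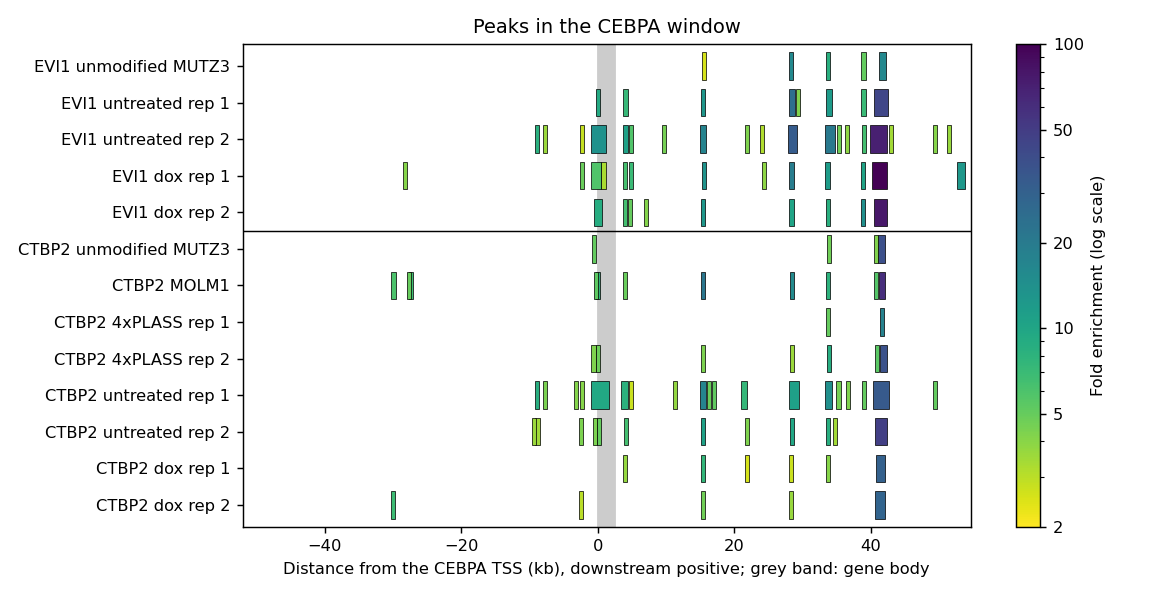
Peaks of the 13 lists by distance from the CEBPA TSS in kb, with EVI1 lists above the line and CTBP2 lists below it; color is fold enrichment on a log scale and narrow peaks are drawn wider for visibility. Only the element at +41.6 kb is called in all 13 lists, and the peaks at the TSS are missing from both CTBP2 dox lists.

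Between that element and the gene, 5 further elements lay more than 10 kb downstream of the CEBPA 3′ end and were called in at least 3 lists. The elements at +33.8 kb (12 lists), +28.4 kb (11 lists) and +15.4 kb (11 lists) carried EVI1 in all 5 EVI1 lists. At +28.4 kb, EVI1 fold enrichment was 15.9 in unmodified cells, 24.2 and 32.6 in untreated and 19.3 and 10.1 in dox-treated cells, while CTBP2 was 11.0 and 9.65 untreated and 2.74 and 3.68 with dox. To set libraries side by side, fold enrichment was divided by its median over the sites of that target called in all 4 inducible libraries, a relative scale added after the values were seen. The CTBP2 medians were 11.7 and 9.42 untreated and 5.49 and 5.79 with dox, so deposited CTBP2 values were lower with dox at the median site too. On the relative scale, dox minus untreated at +28.4 kb was -0.80 (log2) for CTBP2 and -0.77 for EVI1. For both factors both dox libraries lay below both untreated ones. The EVI1 summit of untreated replicate 1 at +28.4 kb lies outside the bases printed above. An AGGAAG match begins at position 9 from that summit. At +15.4 kb, CTBP2 was 17.2 and 10.7 untreated and 7.64 and 4.66 with dox, and EVI1 was 12.9 and 17.5 untreated and 13.5 and 12.7 with dox. On the relative scale, CTBP2 dox minus untreated there was -0.29 (log2), and the groups overlapped. The +33.8 kb element held 2 CTBP2 sites. The stronger was at 14.2 and 8.66 untreated and 4.05 in dox replicate 1, with no peak in dox replicate 2. The weaker was at 4.56 and 3.44 untreated and had no CTBP2 peak with dox. The element at +39.1 kb had EVI1 at 5.09 in unmodified cells, 7.06 and 6.40 untreated and 10.3 and 14.3 with dox, and CTBP2 in untreated replicate 1 alone (5.15). On the relative scale its EVI1 dox minus untreated was 1.09, a change exceeded by 3.27% of sites. The element at +21.8 kb had CTBP2 in both untreated lists and dox replicate 1 with EVI1 in untreated replicate 2 alone.

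The element over the CEBPA TSS, with its summit at -24 bp, was called in 9 lists and had no CTBP2 peak with dox. CTBP2 fold enrichment there was 5.09 in unmodified MUTZ3, 7.84 in MOLM1, 4.82 in 4xPLASS replicate 2, and 9.55 and 5.03 in untreated inducible cells. The unmodified MUTZ3 peak had its summit at -594 bp and did not reach the TSS. EVI1 peaks were present in all 4 inducible lists, at 9.28 and 13.7 untreated and 5.89 and 8.88 with dox. The dox values were the lower ones as deposited, but the groups overlapped on the relative scale. Further upstream, the -8.9 kb element had CTBP2 at 8.60 and 3.48 untreated and no peak with dox, and its one EVI1 peak was in untreated replicate 2.

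In the CEBPB window (CEBPB, chr20:48807367-48809205), CTBP2 peaks were nearly absent with dox. The untreated libraries had 12 and 8 CTBP2 peaks there, and the dox libraries 1 and 0. Few CTBP2 peaks were also called there in other lists without 4xPLDLS: 0 in unmodified MUTZ3, 0 and 4 in 4xPLASS cells and 5 in MOLM1. EVI1 peaks numbered 6 and 12 untreated and 6 and 8 with dox. Of the 6 CTBP2 sites, meaning intervals called in both untreated libraries, 5 (83.3%) had no peak in either dox library, where 41.0% of all CTBP2 sites had none, and the remaining site, at the TSS, had one in dox replicate 1 alone. Windows of 6499 genes, each a gene body and 50 kb on either side, held at least as many CTBP2 sites. Of these genes, 3.94% had no site with a peak in both dox libraries. Longer genes have wider windows, and more sites give more chances of such a peak. The share was not matched for width or number of sites. The CEBPB sites were of middling strength: its strongest, at -24.8 kb, had CTBP2 fold enrichments of 10.8 and 9.28, and 63.2% of genes had a CTBP2 site at least as strong.

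**Figure D2:**
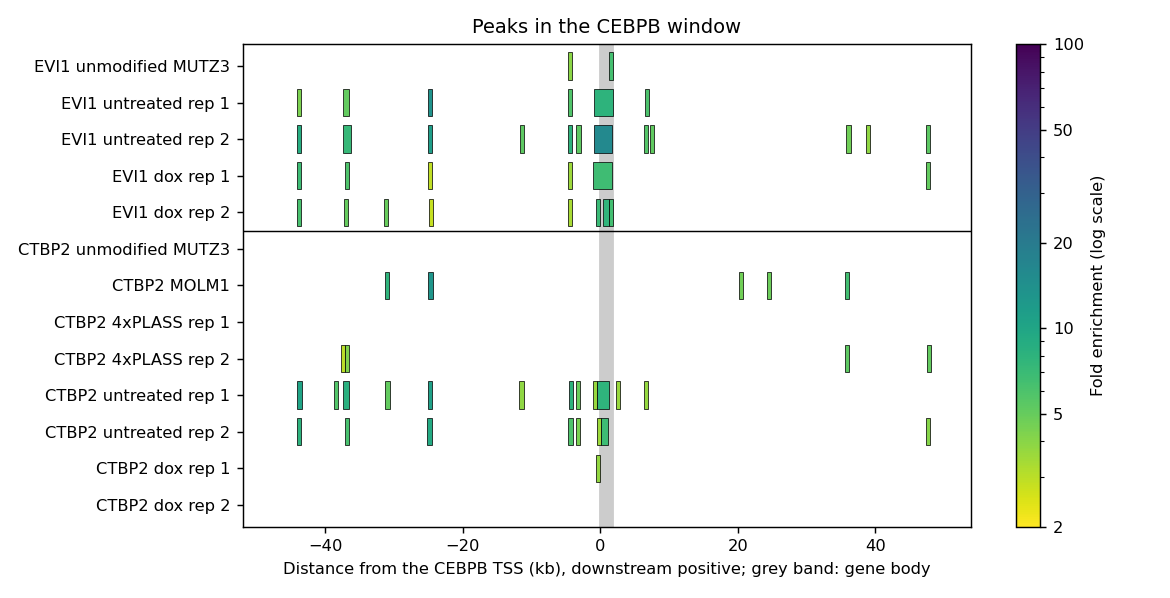
Peaks of the 13 lists by distance from the CEBPB TSS in kb, drawn as for CEBPA. The 2 CTBP2 dox lists hold 1 and 0 peaks, while the EVI1 dox lists hold 6 and 8.

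The -24.8 kb element (chr20:48782210-48782962, in an exon of the long noncoding RNA LINC01275) also differed in EVI1. EVI1 fold enrichment was 13.5 and 11.3 untreated and 2.90 and 2.81 with dox, which by rank is the top 10.4% and 17.7% of EVI1 peaks without dox and 97.8% and 98.4% with it. On the relative scale dox minus untreated was -1.87 (log2), and 6 of 31593 such sites genome-wide had a more negative value. CTBP2 peaks were present there in MOLM1 (12.7) and both untreated lists. The CTBP2 lists of dox-treated, unmodified MUTZ3 and 4xPLASS cells had none, nor did the EVI1 list of unmodified MUTZ3. None of the 4 motifs matched in the 200 bases printed above. The -4.4 kb element, in an intron of CEBPB-AS1, had EVI1 at 5.85 and 7.92 untreated and 3.54 and 3.33 with dox. Its CTBP2 was 8.07 and 5.92 untreated, with no peak with dox. In the 2784 bp element over the CEBPB TSS (-0.3 kb), the strongest EVI1 peaks were at 7.96 and 16.0 untreated and 6.70 and 7.76 with dox. Their summits lay 614 to 1595 bp downstream of the TSS. The strongest CTBP2 peaks were 7.81 (summit at -286 bp) and 6.81 (at 583 bp) untreated and 3.74 (at -273 bp) in dox replicate 1. Near the summit of that dox peak, untreated replicate 2 had CTBP2 at 3.52 (-238 bp), so these values compare unlike summits. The elements at -43.8 kb (CTBP2 at 10.2 and 8.05 untreated) and -36.9 kb (8.40 and 6.22), the latter at the promoter of the neighbouring gene PEDS1, had no CTBP2 peak with dox but EVI1 peaks in all 4 inducible lists. The weaker -3.3 kb element had CTBP2 at 4.90 and 4.40 untreated, no CTBP2 peak with dox, and EVI1 in untreated replicate 2 alone.

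In the CEBPE window (CEBPE, chr14:23586245-23589465), the element 7.3 kb downstream of the TSS was called in all 13 lists. EVI1 fold enrichment was 8.39 in unmodified cells, 25.7 and 50.5 untreated and 35.6 and 34.4 with dox. CTBP2 was 6.98 in unmodified MUTZ3, 18.6 in MOLM1, 4.79 and 12.9 in 4xPLASS cells, 25.9 and 18.7 untreated and 9.82 and 9.47 with dox. On the relative scale, CTBP2 dox minus untreated was -0.29 (log2), a change more negative at 28.5% of sites, and both dox libraries lay below both untreated ones. This was the one CTBP2 site of the 30 whose summit window matched GATAAG, as CTTATC on the plus strand beginning at -42 from the summit, beside a C/EBP match (TTTTGCAA). Of the 10 CTBP2 sites of the window, 1 (10.0%) had a peak in both dox libraries and 5 (50.0%) in neither, where 38.4% and 41.0% of all CTBP2 sites did. The CEBPE promoter element (-0.8 kb, called in 10 lists) held 2 CTBP2 sites. The stronger one, upstream of the TSS, was at 15.0 and 7.79 untreated and had no peak with dox. The one over the TSS was at 5.38 and 3.65 untreated and 5.53 in dox replicate 1, with no peak in dox replicate 2. Several CTBP2 sites of this window lie at other genes: +24.6 kb at the ACIN1 and C14orf119 promoters, and -16.4, -34.2, -35.0 and -42.7 kb within SLC7A8. Of these, -16.4 kb (4.92 and 5.03 untreated), -35.0 kb (7.27 and 6.99) and -42.7 kb (5.72 and 6.05) had no CTBP2 peak with dox, and EVI1 was called in both dox lists at -16.4 and -42.7 kb and in 1 at -35.0 kb.

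CEBPD (chr8:48649475-48650726) had 2 CTBP2 sites and 2 EVI1 sites. The element at +3.2 kb, in an intron of the neighbouring gene SPIDR, was the third one called in all 13 lists, with CTBP2 at 11.4 and 18.7 untreated and 7.85 and 12.5 with dox, and EVI1 at 11.1 and 14.1 untreated and 15.2 and 10.3 with dox. The groups overlapped for both factors as deposited, and on the relative scale EVI1 was higher in both dox libraries (0.97 and 0.62) than in both untreated ones (0.56 and 0.55). CTBP2 dox minus untreated on that scale was 0.34 (log2), and its groups overlapped. At the CEBPD TSS (summit at -0.3 kb, 11 lists), CTBP2 was 8.32 and 5.91 untreated and 4.83 in dox replicate 2, and EVI1 was 9.89 and 15.3 untreated and 13.7 and 8.94 with dox. CEBPG (chr19:33864591-33873592) had its recurrent element at the TSS (summit at -1.1 kb, 11 lists), with EVI1 at 6.20 and 7.08 untreated and 6.74 and 6.39 with dox. It held 2 CTBP2 sites, and each had a peak in 1 dox library. The upstream one was at 8.65 and 5.30 untreated and 4.21 in dox replicate 2, and the one over the TSS was at 5.53 and 4.92 untreated and 4.67 in dox replicate 1. The map of elements by library shows the 20 elements called in 7 or more lists.

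Over the 5 windows together, CTBP2 peaks numbered 52 and 38 untreated and 12 and 11 with dox (45.0 ± 9.90 against 11.5 ± 0.707, mean ± SD, n = 2), a log2 ratio of -1.97, where the whole lists had -1.29. By an exact permutation test (two-sided) p was 0.333, and no design of 2 libraries against 2 can give less. EVI1 peaks numbered 30 and 53 untreated and 37 and 37 with dox (log2 ratio -0.17, exact permutation p = 1). CTBP2 counts were lower in both dox libraries than in both untreated ones in all 5 windows, as they were for 72.3% of all genes with a CTBP2 peak in any of these libraries. EVI1 counts overlapped, or were equal, in all 5. With lists cut to equal size, the CTBP2 log2 ratio was -0.89 (22 and 17 against 10 and 11 peaks).

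**Figure D3:**
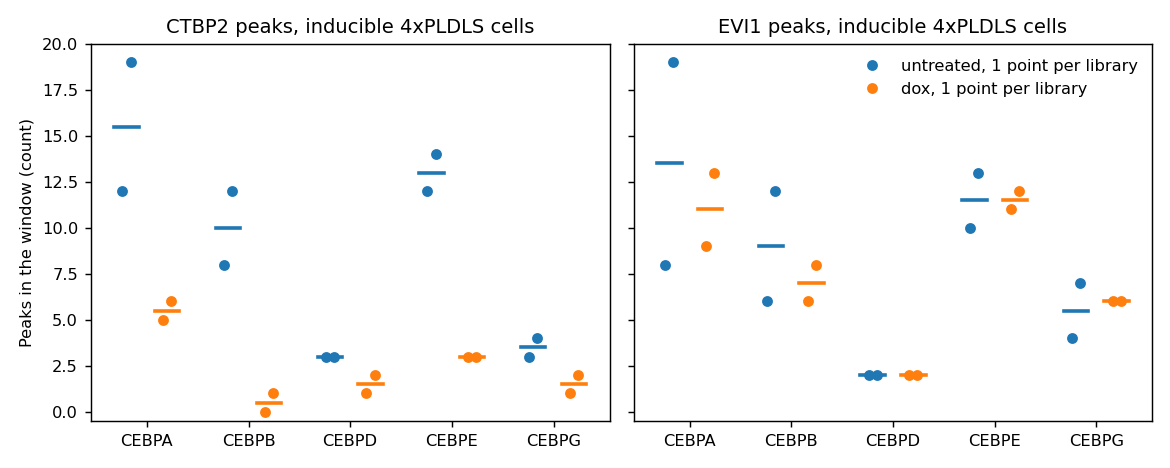
Number of CTBP2 (left) and EVI1 (right) peaks in each window in inducible 4xPLDLS cells; points are libraries (2 per group), bars are means. CTBP2 points with dox lie below the untreated points in all 5 windows. The ratio of means, dox over untreated, is lowest at CEBPB (12 and 8 against 1 and 0, log2 ratio -4.32).

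Of the 30 CTBP2 sites, 40.0% were also called in the first dox library and 33.3% in the second (36.7% ± 4.71, SD, n = 2). Of all CTBP2 sites, 50.8% and 46.5% were (mean 48.7%). Without untreated replicate 2, so that sites came from untreated replicate 1 alone, the mean share of member sites was 21.2%. The share over all sites was not computed at that setting. By site, 5 of 30 (16.7%) had a CTBP2 peak in both dox libraries, where 38.4% of all CTBP2 sites did, and 13 (43.3%) had none, against 41.0% of all sites. The share with no peak was near that of the genome, and the remaining 12 member sites were called in 1 dox library. The 5 sites with peaks in both were CEBPA +41.6, +28.4 and +15.4 kb, CEBPE +7.3 kb and CEBPD +3.2 kb, all with a fold enrichment over 9.29 in untreated replicate 1. All CTBP2 sites were also split into 5 equal classes of strength. In the strongest class, 3 of the 5 member sites had peaks in both dox libraries, against 81.4% of all sites of that class. In the next class, which begins at 9.29, it was 2 of the 5 member sites, against 47.3% of all its sites. A fold enrichment over 9.29 therefore did not set the kept member sites apart.

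EVI1 was called at most of the same places with dox. Of 27 EVI1 sites, 26 (96.3%) had a peak in both dox libraries and 1 in neither, where 78.1% and 9.01% of all EVI1 sites did. As a mean of the shares called in each dox library, the value was also 96.3%. With sites taken from untreated replicate 2 alone, that mean was 59.4%, and the share over all sites was not computed at that setting. Of the 13 CTBP2 sites with no dox peak, 9 had an untreated EVI1 site, and at 8 of these EVI1 was called in both dox libraries, against 70.5% of such sites genome-wide. An EVI1 site lay at 23 of the 30 CTBP2 sites (76.7%, against 82.5% of all CTBP2 sites). On the relative scale, EVI1 was higher in both dox than in both untreated libraries at 7 of 26 sites (26.2% of all sites) and lower at 6 (26.9% of all sites). The largest positive differences of dox minus untreated among the members were at CEBPE +25.4 kb (1.17, log2), CEBPA +39.1 kb (1.09) and CEBPA +41.6 kb (0.89, exceeded by 6.12% of sites). The most negative were at CEBPB -24.8 kb (-1.87), the upstream site of CEBPE -0.8 kb (-0.95), CEBPA +28.4 kb (-0.77) and CEBPB -4.4 kb (-0.75). For CTBP2, 0 of 5 sites were higher on this scale (26.9% of all sites) and 2 were lower (25.9% of all sites), CEBPA +28.4 kb and CEBPE +7.3 kb.

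**Figure D4:**
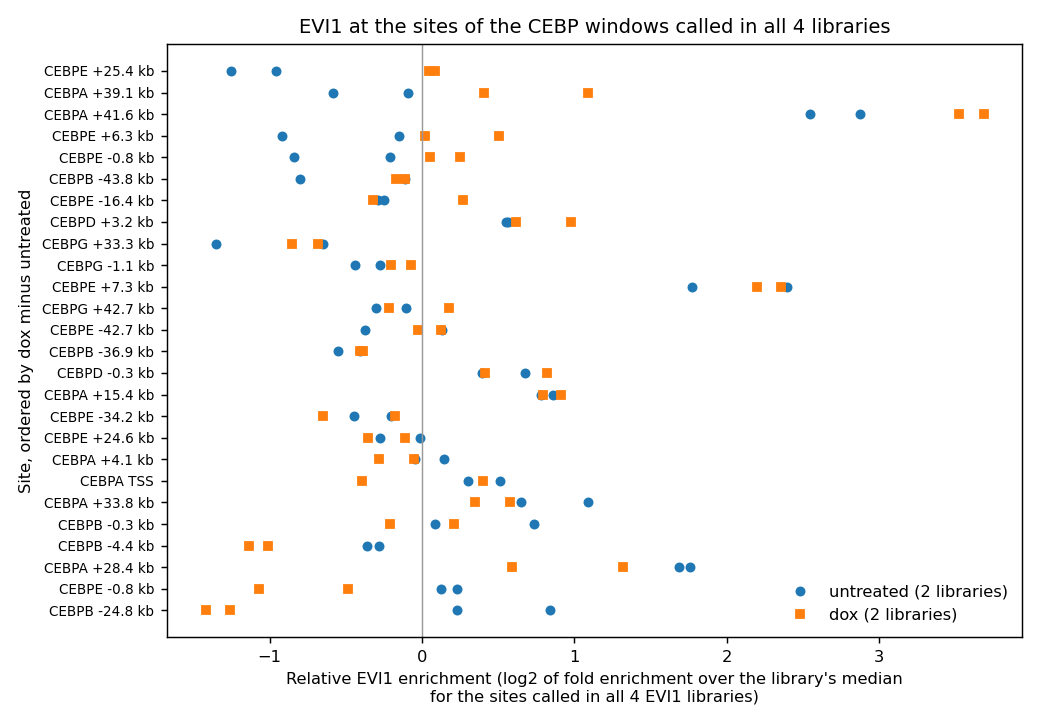
Relative EVI1 enrichment (log2 of fold enrichment over the library's median for sites called in all 4 libraries) at the 26 sites of the CEBP windows called in all 4 libraries, ordered by dox minus untreated; each point is 1 library. CEBPB -24.8 kb has the lowest position in the order, with a change of -1.87, and CEBPA +41.6 kb lies to the right of all other sites.

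In unmodified MUTZ3, 5 of 9 CTBP2 peaks overlapped an EVI1 peak (55.6%, Wilson 95% interval 26.7 to 81.1, counting error only), against 54.5% of all CTBP2 peaks. Conversely, 5 of 14 EVI1 peaks overlapped CTBP2 (35.7%, interval 16.3 to 61.2), against 43.0% of all EVI1 peaks. When EVI1 sites of the untreated inducible cells were used instead, all 9 CTBP2 peaks lay at one (interval 70.1 to 100), against 76.5% of all CTBP2 peaks. Of the 30 CTBP2 sites, 15 (50.0%) had a peak in MOLM1, against 61.9% of all sites. In 4xPLASS replicates 1 and 2 it was 5 (16.7% against 13.7%) and 14 (46.7% against 52.2%), and in unmodified cells 8 (26.7% against 31.2%). Only 3 were called in all 13 lists, which is 10.0% against 8.19% of all sites, a share near that of the genome. With the short list of 4xPLASS replicate 1 left out, a count added after the values were seen, it was again 3 (10.0%), against 15.5% of all sites.

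CEBPA and CEBPE had 10 CTBP2 sites each, CEBPB had 6, and CEBPD and CEBPG had 2 each. The median protein-coding gene had 3, and 11.6% of genes had 10 or more. A CTBP2 site as strong as CEBPA +41.6 kb in untreated replicate 1 was found near 3.48% of genes, and an EVI1 site as strong near 1.47%.

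The counts of motif letters were small, so they are given as a description beside the shares of the whole lists. Those lists also hold peaks not called in the other untreated library, so the compared sets are not filtered alike. In the 200 bases around the CTBP2 summits of the 30 sites, AGGAAG matched at 13 (43.3%, against 38.1% of 61157 summits of untreated replicate 1), TGTGGT at 5 (16.7% against 17.4%), TTGCNNAA at 4 (13.3% against 5.41%) and GATAAG at 1 (3.33% against 4.13%). Around the EVI1 summits of the 27 sites, AGGAAG matched at 13 (48.1% against 43.0% of 50298 summits), TGTGGT at 3 (11.1% against 19.3%), TTGCNNAA at 4 (14.8% against 6.51%) and GATAAG at 1 (3.70% against 6.25%).

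The genes that encode partners and regulators of C/EBP proteins (DDIT3, ATF4, TRIB1, TRIB2, TRIB3, NFIL3, BATF, FOS and JUN) had 67 CTBP2 sites, of which 22 (32.8%) had peaks in both dox libraries and 30 (44.8%) in neither, against 38.4% and 41.0% of all sites. TRIB2 had no CTBP2 site. Known granulocyte targets of C/EBP factors (CSF3R, ELANE, MPO, PRTN3, AZU1, LTF, LCN2, CAMP and MMP8) had 35 CTBP2 sites, 13 (37.1%) with peaks in both and 18 (51.4%) in neither. EVI1 was called in both dox libraries at 57 of 70 (81.4%) and 32 of 39 (82.1%) of their EVI1 sites, against 78.1% of all sites. Sites with CTBP2 peaks in both dox libraries were 3 of 6 at CSF3R, which encodes the G-CSF receptor, 3 of 5 at MPO, which encodes myeloperoxidase, 2 of 7 at LTF, 3 of 6 at LCN2, 1 of 3 at CAMP and 1 of 1 at MMP8. They were 0 of 3, 0 of 5 and 0 of 6 at ELANE, PRTN3 and AZU1, which are neighbours and share sites.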

How the data were processed

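ChIP-seq peak lists of 13 of the 31 samples were used, grouped by their labels; the other samples are inputs or were not analysed here. The authors aligned reads to hg19 and called peaks per library with MACS2 at default parameters against an input. The submitters' processing notes name bcl2fastq 1.8.4, Bowtie 1.1.1, MACS2 2.1.2 and deepTools 3.5.1. The fold enrichment deposited for a peak is the authors' ratio of summit signal to local background. Its deposited significance, as −log10 p and as −log10 q, is the peak caller's. No list holds read counts, so the authors' DiffBind comparison, which needs reads, was not repeated.

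Gene bodies came from GENCODE release 44 mapped to GRCh37, and no peak on its primary chromosomes ran past a chromosome end. Peaks overlapped at 1 bp or more. A site is an interval called in both untreated libraries of a target. Numbers of peaks were tested by exact permutation (two-sided), and shares carry SDs over 2 libraries or Wilson 95% intervals. Per gene, the strongest CTBP2 element and the TSS element were described, with elements called in at least 10 lists, CEBPA elements over 10 kb downstream in at least 3 lists, and up to 10 elements with CTBP2 in both untreated and neither dox list. Members and lists were chosen with earlier results of these data known. Alternatives were other windows, stricter peaks, other overlaps, equal lists, ranks by −log10 p, the replicate block and libraries left out. The overlap procedure was tested on simulated lists and checked against bedtools 2.31.1. Scripts ran in Python 3.11.15 (scipy 1.17.1, pandas 2.3.3, numpy 2.4.6, matplotlib 3.10.9).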

Additional observations from a re-analysis of the deposited data

How the results depend on the processing

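The lists carry no depth, and the number of peaks called in each library limits every share. The lower CTBP2 count with dox kept its direction under every alternative, with log2 ratios of -2.58 to -0.89 over the other settings, -2.18 to -1.72 when each library was left out and -1.95 with the replicate block (exact sign-flip p = 0.5, the smallest 2 pairs allow). The numbers shared by replicates are not stated to pair libraries. For EVI1 counts the replicate block gave -0.11 (exact p = 1), lists of equal size gave 0.11, 10 kb windows gave 0 (13 and 21 peaks untreated, 16 and 18 with dox), and leaving out each library gave -0.52 to 0.30, with the positive value without untreated replicate 2.

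The share of CTBP2 sites with a dox peak (36.7%) was 22.9% at a −log10 q of at least 5, 17.5% at a fold enrichment of at least 5, 46.7% with lists of equal size, 19.6% for sites of either untreated library, and 21.2% to 40.0% when each library was left out. For EVI1 sites (96.3%) it was 91.7% with 10 kb windows, 88.0% at the stricter q, 81.8% at the stricter fold enrichment, 92.0% with lists of equal size, 58.2% for sites of either untreated library, and 59.4% to 96.3% when each library was left out. Both EVI1 dox libraries held a peak at the same number of sites, so a move by more than 1 site was counted as a change. Overlap of unmodified CTBP2 with EVI1 was 100% for the EVI1 sites of inducible cells. The causes of these shifts were not tested. The other 34 values kept their direction, or for shares stayed within 1 SD, 1 site or the counting interval. Ranked by −log10 p, the strongest EVI1 peak of CEBPA stood at 0.0185% of the list (0.213% by fold enrichment), the strongest CTBP2 peak of CEBPB at 23.7% (17.4%) and that of CEBPE at 3.27% (2.00%), as means of the untreated lists. The strongest EVI1 peak of CEBPB also moved to a weaker rank. The other 6 such ranks moved by less than the spread between replicates.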

Other observations

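In MOLM1, CTBP2 peaks lay over 24 elements of the CEBP windows, and 19 of these had a CTBP2 peak in at least 1 MUTZ3 list. The other 5 were called in the MOLM1 list alone, with no EVI1 peak in any list: CEBPA -27.3 kb and -27.6 kb, CEBPB +20.5 kb and +24.5 kb, and CEBPE -1.3 kb. The share of all MOLM1 CTBP2 peaks that lack a MUTZ3 CTBP2 peak was not computed. These counts therefore cannot be called particular to the CEBP windows. EVI1 peaks of MOLM1 were not analysed here, and with 1 MOLM1 library these differences have no replicate check.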
